A study of Mus musculus with 14 samples.

Results

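The Id genes Id1, Id2, Id3 and Id4 were examined for binding of phosphorylated SMAD1/5/9 (pSMAD1/5/9) and SMAD4 and for acetylation of histone H3 on lysine 27 (H3K27ac) in cultured mouse muscle stem cells (MuSCs), the stem cells of skeletal muscle. All peaks were taken that overlapped the canonical GENCODE transcript of an Id gene or the 20 kb on either side of it. This gave 75 peaks, of 175565 in the 6 consensus lists of the series. Of these, 24 lay at Id1, 20 at Id2, 26 at Id3 and 5 at Id4. The data came from CUT&Tag, in which a transposase is directed to an antibody on chromatin and cuts and tags the DNA there. MuSCs were isolated from female 9-week-old C57BL/6N(Tg(Pax7-EGFP)Tajb) mice, cultured for 1 day, sorted for the GFP of the Pax7 reporter and cultured for 2 days at 3% O2. All cells, the control cells included, were then kept for 6 h without serum and with 200 ng/mL of BMPR-1A-Fc, a soluble receptor fragment that binds BMPs. BMP6-stimulated cells received 100 ng/mL BMP6 for 1 h and control cells received the vehicle, 4 mM HCl with 0.1% BSA. Each of the 6 combinations of antibody and condition had 2 biological replicates of 100000 cells, and 2 libraries made with no primary antibody were left aside. The cells are a reporter-sorted, cultured and starved population, and a stronger signal in each cell and more cells with signal cannot be told apart.

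Id proteins are helix-loop-helix proteins without a DNA-binding domain. They dimerize with E proteins such as TCF3, TCF4 and TCF12 and so withhold these partners from MYOD1 and the other myogenic regulatory factors, which is why they are known as inhibitors of differentiation. Id genes are textbook targets of BMP signaling: the activated receptors phosphorylate SMAD1, SMAD5 and SMAD9, these join SMAD4, and the complex binds DNA at GC-rich sites and at the SMAD-binding element CAGAC. H3K27ac marks active promoters and enhancers. The comparison of BMP6-stimulated with control cells asks where on the Id genes SMADs were bound 1 h after BMP6.

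The cells bore the marks of their label. In control cells an H3K27ac peak covered the TSS of 8 of 8 markers of muscle stem cells and myoblasts (Pax7, Myf5, Myod1, Cdh15, Itga7, Vcam1, Des and Sdc4), of 1 of 4 endothelial markers (Tek), of 0 of 4 immune markers and of 1 of 4 markers of fibro-adipogenic cells (Dpt), and these counts were the same in BMP6-stimulated cells. Peaks over the TSS were not counted for all genes, of which 73.4% had an H3K27ac peak within 20 kb in control cells. The lists held 7339 pSMAD1/5/9, 12860 SMAD4 and 78050 H3K27ac peaks with BMP6, and 949, 8577 and 67790 in control cells. Read counts per peak are not given in them. Each list gives for every peak the signal of either replicate, a score of the peak caller, and their sum, by which peaks are ranked here from 1 for the strongest.

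The sequences of 200 bp around 8 summits are printed first, because strong and weak summits and the motifs described further on can be read in them. They are from GRCm39, 5′ to 3′ on the strand of the gene, with the summit as base 100 of the window. Capitals mark matches on either strand to GGCGCC or GGAGCC (GC-rich sites of BMP SMADs), CAGAC (the SMAD-binding element, read as GTCTG on the other strand), GTCTAGAC (the SMAD palindrome), CAGCTG (an E-box) and TGAGTCA (AP-1). Matches to the 6 motifs can adjoin one another, as 2 matches to GGAGCC do in the Id2 window. The first 3 lines are from Id1 and show the pSMAD1/5/9 summit 1163 bp upstream of the TSS (chr2:152576903-152577102), the SMAD4 summit 6493 bp upstream (chr2:152571573-152571772) and the pSMAD1/5/9 summit 2965 bp downstream (chr2:152581031-152581230), whose window holds none of the 6 motifs.
Id1 pSMAD1/5/9 upstream: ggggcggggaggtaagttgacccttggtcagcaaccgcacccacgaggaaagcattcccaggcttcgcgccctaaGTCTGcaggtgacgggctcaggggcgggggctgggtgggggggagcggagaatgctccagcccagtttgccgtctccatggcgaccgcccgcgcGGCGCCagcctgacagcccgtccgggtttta
Id1 SMAD4 far upstream: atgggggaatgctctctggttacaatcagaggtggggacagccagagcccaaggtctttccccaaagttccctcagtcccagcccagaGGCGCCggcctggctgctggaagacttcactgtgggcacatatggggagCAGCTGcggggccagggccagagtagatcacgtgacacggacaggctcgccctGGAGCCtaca
Id1 pSMAD1/5/9 downstream: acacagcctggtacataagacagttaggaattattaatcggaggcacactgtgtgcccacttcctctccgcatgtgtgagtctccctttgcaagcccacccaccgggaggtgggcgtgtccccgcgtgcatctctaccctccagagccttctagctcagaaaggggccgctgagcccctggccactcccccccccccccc
Both upstream windows of Id1 lie in introns of longer Id1 transcripts, and the downstream window overlaps no annotated exon. The next 3 lines are the pSMAD1/5/9 summit 1574 bp upstream of Id2 (chr12:25148756-25148955, minus strand, a stretch that also overlaps an exon of the lncRNA gene Gm36287), the pSMAD1/5/9 summit 3027 bp upstream of Id3 (chr4:135867682-135867881) and the SMAD4 summit 4483 bp downstream of the TSS of Id3 (chr4:135875192-135875391), the last 2 of which overlap no annotated exon. In all 3, GGCGCC is followed after 5 bases by GTCTG.
Id2 pSMAD1/5/9 upstream: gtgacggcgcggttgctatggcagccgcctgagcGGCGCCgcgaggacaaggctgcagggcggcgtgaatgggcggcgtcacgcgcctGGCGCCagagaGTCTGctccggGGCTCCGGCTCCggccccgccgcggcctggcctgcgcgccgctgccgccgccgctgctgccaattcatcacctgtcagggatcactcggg
Id3 pSMAD1/5/9 upstream: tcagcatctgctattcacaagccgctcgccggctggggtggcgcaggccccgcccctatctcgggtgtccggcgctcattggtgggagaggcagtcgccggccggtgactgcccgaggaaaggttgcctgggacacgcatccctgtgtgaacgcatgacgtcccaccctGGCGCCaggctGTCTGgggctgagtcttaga
Id3 SMAD4 downstream: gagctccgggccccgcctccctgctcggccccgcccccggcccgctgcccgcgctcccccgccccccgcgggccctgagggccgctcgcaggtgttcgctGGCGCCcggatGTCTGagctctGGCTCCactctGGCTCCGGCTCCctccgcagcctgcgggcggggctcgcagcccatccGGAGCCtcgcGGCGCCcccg
The last 2 lines are the only SMAD peaks at Id4, the pSMAD1/5/9 summit 171 bp upstream (chr13:48414288-48414487, overlapping an exon of the lncRNA gene Gm49291) and the SMAD4 summit 14700 bp downstream (chr13:48429159-48429358, outside annotated transcripts).
Id4 pSMAD1/5/9 upstream: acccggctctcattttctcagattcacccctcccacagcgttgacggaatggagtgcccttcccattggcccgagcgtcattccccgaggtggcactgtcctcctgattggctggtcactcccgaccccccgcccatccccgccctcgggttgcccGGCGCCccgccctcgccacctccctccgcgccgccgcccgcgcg
Id4 SMAD4 downstream: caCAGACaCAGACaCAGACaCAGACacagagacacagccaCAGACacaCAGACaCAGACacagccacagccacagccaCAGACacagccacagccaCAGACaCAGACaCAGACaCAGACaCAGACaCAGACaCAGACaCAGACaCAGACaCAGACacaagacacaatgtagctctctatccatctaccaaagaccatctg
The SMAD4 window at Id4 is a tandem repeat that holds CAGAC 18 times.

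After BMP6 each of the 4 Id genes had pSMAD1/5/9 peaks, 5 at Id1, 2 at Id2, 6 at Id3 and 1 at Id4. In control cells 1 peak was listed at Id2, 1 at Id3 and none at Id1 and Id4, so that 14 peaks stood against 2. A pSMAD1/5/9 peak within 20 kb was listed for 29.1% of 21757 protein-coding genes after BMP6 and for 5.97% in control, and 23.5% of genes had such a peak after BMP6 but not in control, as Id1 and Id4 did. At least 5 of these peaks, as at Id1 and Id3, were found at 1.04% of genes. The Id genes are short, 1380 bp to 4945 bp, and among 4224 genes of at most 5 kb at least as many peaks as at Id1 were found at 0.592% and at least as many as at Id3 at 0.284%. SMAD4 had 9 peaks at Id1 after BMP6, 5 at Id2, 6 at Id3 and 1 at Id4, and in control 6 at Id1, 2 at Id2, 5 at Id3 and none at Id4. For SMAD4, 39.3% of all genes had a peak after BMP6 and 30.8% in control, at least 5 peaks in BMP6-stimulated cells were found at 3.12% of genes, and 24.0% of genes had more peaks after BMP6, as each of the 4 Id genes did. The control list of pSMAD1/5/9 is the shortest, and among the 949 strongest peaks of BMP6-stimulated cells 8 lay at the Id genes.

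**Figure D1:**
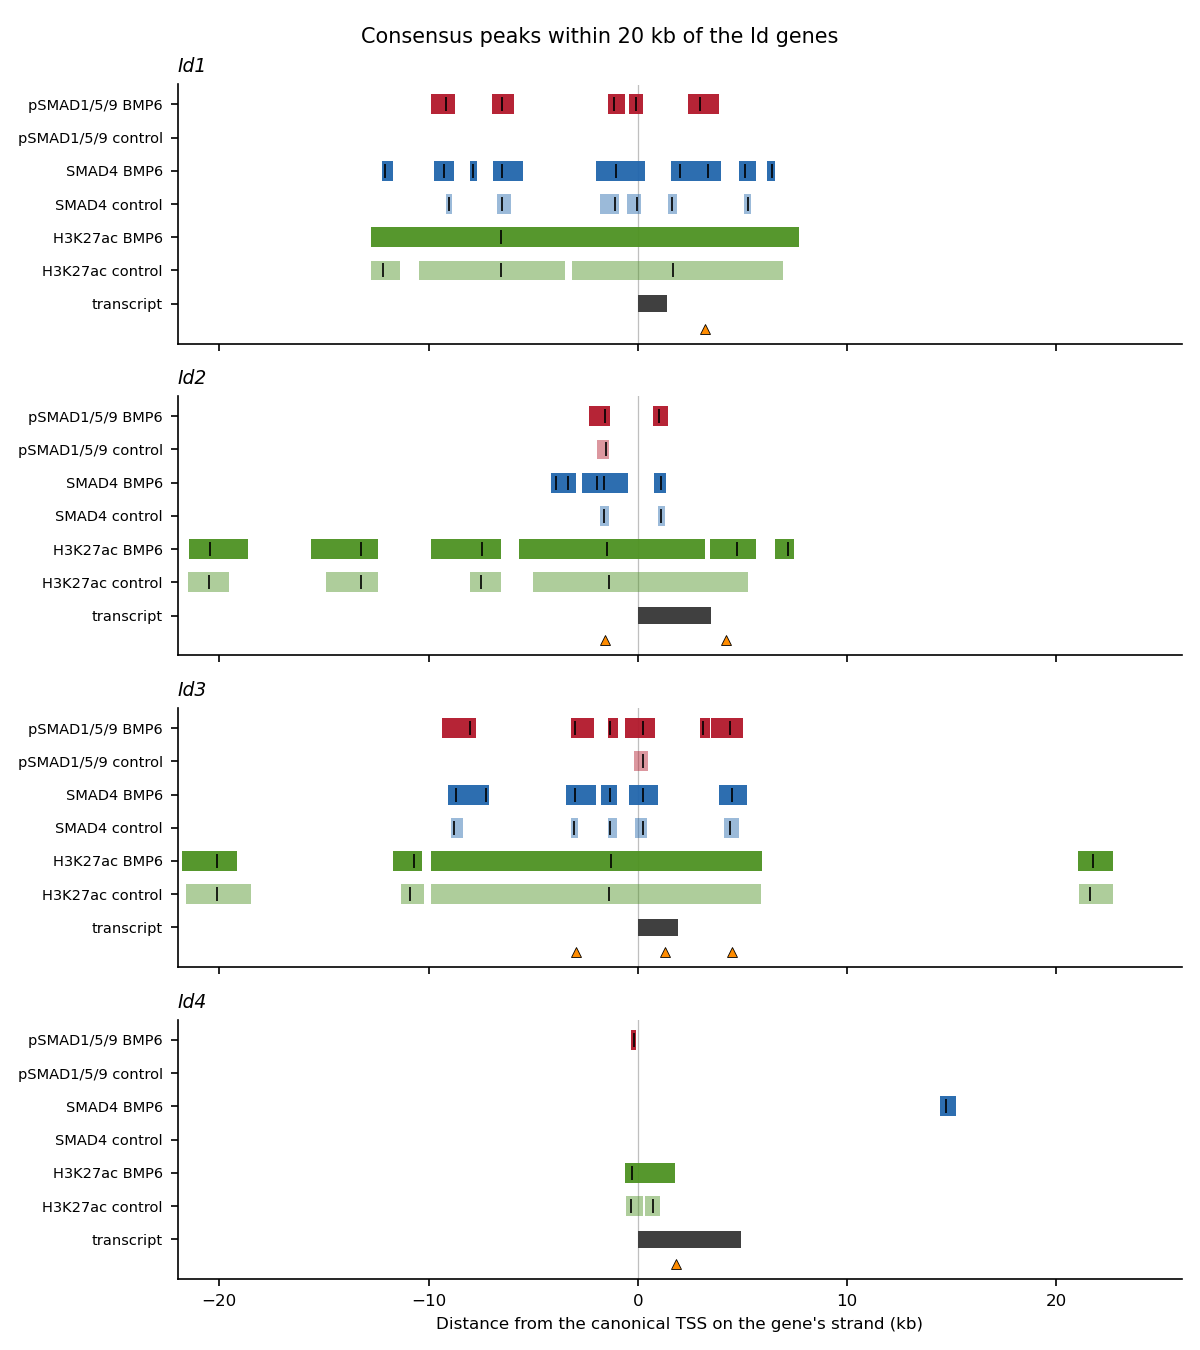
Peaks at Id1, Id2, Id3 and Id4 by distance in kb from the canonical TSS, on the strand of the gene. Each bar is a consensus peak of the list named at the left (dark, BMP6; pale, control), each black tick its summit, each grey bar the transcript, and each triangle a site of GGCGCC, 5 bases and GTCTG. The SMAD peaks of Id1 and Id3 lie on both sides of the gene, and Id4 has 1 pSMAD1/5/9 and 1 SMAD4 peak, both of BMP6-stimulated cells.

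Id1 (ENSMUSG00000042745.11, chr2:152578165-152579544, plus strand, 2 exons) had the SMAD4 peak with the best rank. It was 2343 bp wide, covered the TSS, and ranked 35 of 12860 with replicate signals of 61041 and 27322. Its consensus summit lay 1043 bp upstream of the TSS and its replicate summits at −1629 and −1718 bp. Of all genes, 0.211% had a SMAD4 peak of this rank or better within 20 kb. In control cells the strongest SMAD4 peak of Id1 lay in the same place, with its summit 1112 bp upstream, and ranked 630 of 8577 with replicate signals of 18198 and 11456. A second control peak, over the TSS at −60 bp with 10575 and 6016, lay under the same BMP6 peak, and ratios are against the stronger of these control peaks alone.

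Of the 5 pSMAD1/5/9 peaks at Id1, 4 lay upstream. The strongest had its summit 6516 bp upstream and ranked 204 of 7339, with replicate signals of 39385 and 32497. The peak 2965 bp downstream of the TSS, beyond the end of the gene, ranked 266 with 37224 and 28531. Those 9191 bp and 1163 bp upstream ranked 297 and 338, with 37466 and 26333 in the former and 39456 and 22151 in the latter. The peak over the canonical TSS was the weakest of the 5, with a rank of 1324 and replicate signals of 22811 and 13379. The 4 peaks that did not cover this TSS thus stood in the top 5% of the list, and the peak that covered it did not. None of the 5 overlapped a pSMAD1/5/9 peak of control cells. GENCODE also lists Id1 transcripts that start at −11947, −9304 and −6852 bp, and the upstream summits at −9191 and −6516 were 113 bp and 336 bp from the nearest of these starts.

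Id3 (ENSMUSG00000007872.5, chr4:135870808-135872703, plus strand, 3 exons) had the pSMAD1/5/9 peak with the best rank, 152 of 7339, with replicate signals of 50936 and 26622. This peak covered the TSS, and its consensus summit lay 255 bp downstream in the 5′ UTR part of exon 1, while the replicate summits lay at −400 and 266 bp. The SMAD4 peak there had its summit at 254 bp and ranked 291, with 28711 and 22425. Both factors were also listed at this place in control cells, where pSMAD1/5/9 ranked 332 of 949 with 22619 and 15209, and SMAD4 ranked 1032 of 8577 with 14181 and 9260. A further pSMAD1/5/9 peak behind the gene, with its summit at 4398 bp, ranked 315 with 36844 and 26087. The remaining 4 were weaker, with ranks of 946, 999, 4850 and 5531 at −3027, −8026, 3130 and −1340 bp, and for the peak at −3027 bp the replicates were far apart, at 31879 and 10581.

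Id2 (ENSMUSG00000020644.11, chr12:25143798-25147282, minus strand, 3 exons) had its pSMAD1/5/9 peaks 1574 bp upstream and 993 bp downstream of the TSS, the second in the 5′ UTR part of exon 1 and 203 bp from the start of a shorter Id2 transcript. The upstream peak ranked 763 of 7339 with replicate signals of 30654 and 15606, and the other ranked 2151 with 16846 and 10705. In control cells a pSMAD1/5/9 peak was listed 1540 bp upstream, at rank 641 of 949 with 13740 and 11681. The strongest SMAD4 peak overlapped the same stretch and ranked 300 of 12860 with 28598 and 22004 in BMP6-stimulated cells and 2469 of 8577 with 5766 and 9054 in control cells. Its consensus summit in BMP6-stimulated cells lay 1644 bp upstream, while the replicate summits lay at −626 and −741 bp. Both control peaks of pSMAD1/5/9, at Id2 and Id3, were near the threshold of the irreproducible discovery rate (IDR), with a −log10 IDR of 1.55 and 1.53, and neither passed an IDR of 0.01. How many of the 949 peaks of that list passed it was not counted, so this cannot be read as particular to the Id genes.

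Id4 (ENSMUSG00000021379.4, chr13:48414558-48419502, plus strand, 3 exons) had the weakest of the 14 pSMAD1/5/9 peaks. This peak was 243 bp wide and ranked 6843 of 7339, with replicate signals of 5171 and 5313 and a −log10 IDR of 1.43. No SMAD4 peak overlapped it, and the only SMAD4 peak of the region, at 14700 bp, ranked 5150 of 12860 with 7848 and 3917. Both peaks overlapped none in control cells, where no SMAD peak was listed at Id4. The SMAD4 peak is the one on the CAGAC repeat. Windows with at least 10 matches to CAGAC numbered 90, or 0.700%, of the SMAD4 windows of BMP6-stimulated cells, 40, or 0.466%, of those of control cells and 4, or 0.0545%, of the pSMAD1/5/9 windows of BMP6-stimulated cells.

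**Figure D2:**
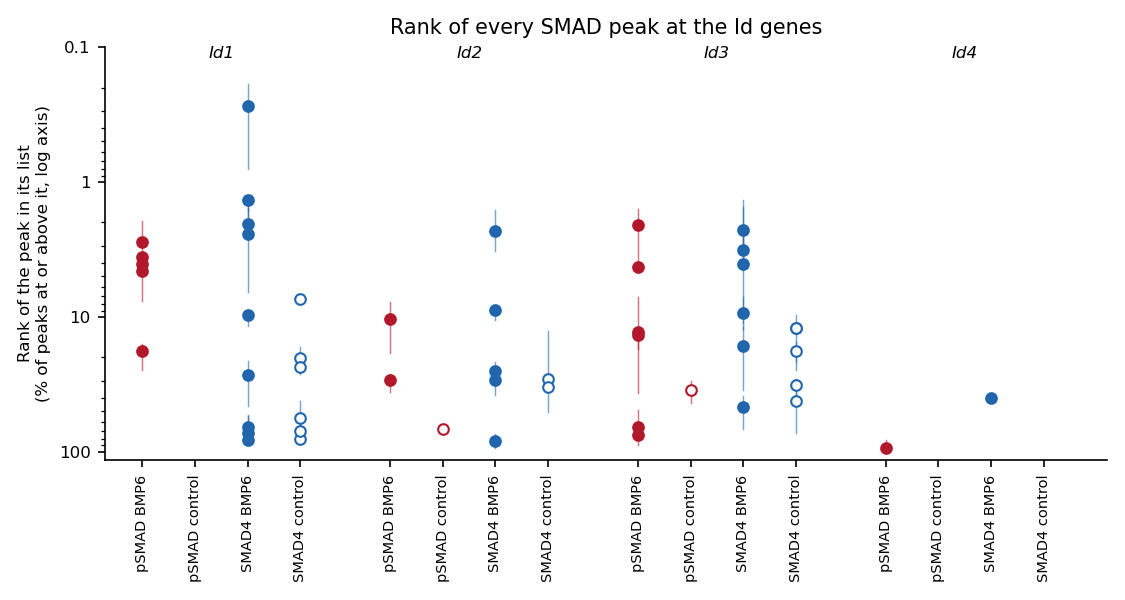
Rank of each SMAD peak at the Id genes, as the percentage of peaks of its list at or above it (log axis, strongest at the top). Filled points are BMP6 and open points control, and lines join the ranks by either replicate alone. The strongest SMAD4 peak of Id1 stands at 0.272%, the strongest pSMAD1/5/9 peak of Id3 at 2.07%, and the pSMAD1/5/9 peak of Id4 at 93.2%.

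Across the 4 genes, 6 of 14 pSMAD1/5/9 and 11 of 21 SMAD4 peaks after BMP6 were in the top 10% of their lists. In control cells 0 of 2 and 1 of 13 were. The nearest other protein-coding TSS lay 17898 bp away at Id1 (Cox4i2), 28777 bp at Id3 (E2f2), 122405 bp at Id2 (Kidins220) and 252354 bp at Id4 (Zfp169). The Id gene had the nearest protein-coding TSS to all 50 SMAD summits, which at Id2 and Id4 followed from these distances and the 20 kb rule. Genes of lncRNAs, some of which overlap these summits, were not counted.

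Peaks present in both conditions allow the signals to be compared in 4 values, 2 of each condition. After BMP6, 2 of 14 pSMAD1/5/9 peaks overlapped a control peak, against 11.4% of the whole list, and both control peaks overlapped a BMP6 peak, against 84.7%. For SMAD4, 12 of 21 peaks overlapped a control peak, against 45.5%, and 13 of 13 control peaks overlapped a BMP6 peak, against 69.7%. With 2 values against 2, the smallest two-sided p of an exact permutation test is 0.333, so no test was made. Log2 ratios were taken relative to the median of all peaks listed in both conditions, which was 0.27 for SMAD4 and 0.11 for pSMAD1/5/9.

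At 9 of the 12 SMAD4 peaks both BMP6 values exceeded both control values, as at 23.5% of all SMAD4 peaks listed in both conditions. For this count each replicate column was centred on its own median log2 signal over all such peaks. The largest ratio was at Id1, 9285 bp upstream. There the replicate signals were 3974 and 2096 in control cells and 36787 and 13078 in BMP6-stimulated cells. The sum was 8.21-fold higher, or 2.76 on the centred log2 scale, which exceeded 99.98% of all matched SMAD4 peaks. The control peak was 291 bp wide, with its summit 9044 bp upstream, and did not reach the BMP6 summit. It ranked 6956 of 8577 with a −log10 IDR of 1.53. The next largest ratio was 2002 bp downstream of the TSS of Id1, with 5101 and 2098 in control and 19732 and 9648 in BMP6-stimulated cells, or 1.76 on that scale. The control summit lay at 1630 bp with a rank of 6037, and the BMP6 summit again lay outside the control peak. At Id2 the centred ratio was 2.82-fold at the upstream peak, or 0.07 in log2 per bp of width, while it was 0.92-fold at the downstream peak, with 7850 and 5549 in control and 10736 and 4240 in BMP6-stimulated cells, so that these groups overlapped. At Id3 the 5 peaks lay between 0.41 and 1.13, and the groups overlapped at the peak 1340 bp upstream. At Id1 they overlapped only at the peak 5129 bp downstream, with 4567 and 4343 in control and 12437 and 3581 in BMP6-stimulated cells.

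For pSMAD1/5/9, with each replicate column centred in the same way, both matched peaks had BMP6 values above the control values, as 31.6% of all matched pSMAD1/5/9 peaks had. The centred log2 ratio was 0.76 at Id2 and 0.93 at Id3. For SMAD4 the median over the 12 peaks was 0.99, and when 50% of both peaks had to overlap it was 0.46 over the 3 peaks left, 2 of them above 0. Peaks that differ by more than 2 times in width cannot meet that rule.

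**Figure D3:**
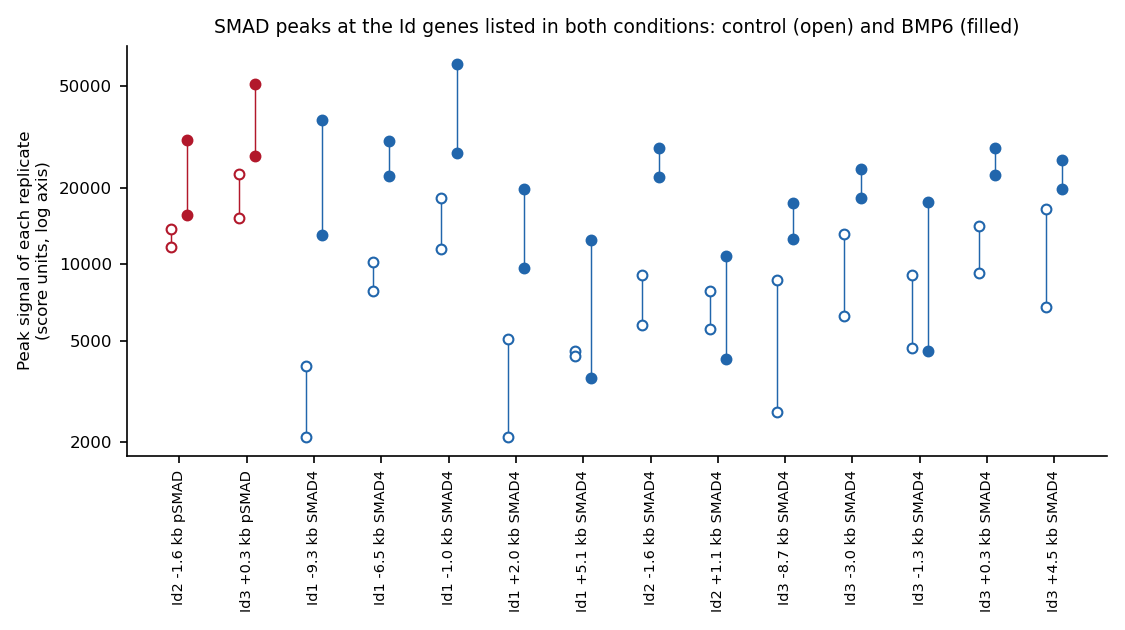
Signal of either replicate (points, joined by a line; score units, log axis) at the 2 pSMAD1/5/9 (red) and 12 SMAD4 (blue) peaks of the Id genes listed in both conditions. Control is open and BMP6 filled. The groups do not overlap at 11 of the 14 peaks and overlap at Id1 +5.1 kb, Id2 +1.1 kb and Id3 −1.3 kb.

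Peak width moved with these ratios. All 12 SMAD4 peaks were wider in BMP6-stimulated cells, by 1.72 to 4.24 times with a median of 2.41, against a median of 1.17 and 65.1% wider peaks over all 5852 matched SMAD4 peaks. Within each list signal increased with width (Spearman's rho 0.660 to 0.810 across peaks, which are not independent). Per bp of peak width the centred median at the Id genes was 0.04 for SMAD4 and −0.01 for pSMAD1/5/9, and 7 of 12 SMAD4 peaks were above 0. The Id1 peak 9285 bp upstream stayed high by this measure, at 1.28, above 99.4% of matched peaks, and those at −6493 and 2002 bp stood at 0.51 and 0.55. The lowest were the Id3 peak at −3000 bp, at 0.50-fold per bp and above 2.97% of matched peaks, and the peaks at 1087 bp in Id2 and 5129 bp in Id1, at −0.64 and −0.43 in log2. The difference in SMAD4 signal at most Id peaks thus went with a difference in width, and the part of width in it was not tested.

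**Figure D4:**
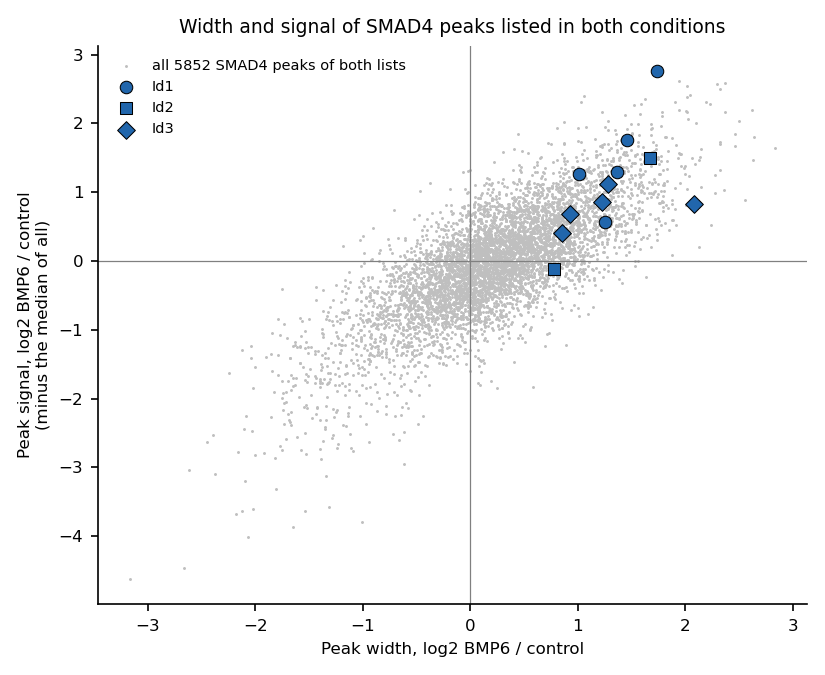
Log2 ratio of peak width (x axis) and centred log2 ratio of peak signal (y axis), BMP6 over control, for SMAD4 peaks listed in both conditions. Grey points are all 5852 peaks and coloured points the 12 at Id1, Id2 and Id3. All 12 lie right of 0 in width, and 11 of 12 above 0 in signal.

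pSMAD1/5/9 and SMAD4 were found together at most of these places. In BMP6-stimulated cells 12 of 14 pSMAD1/5/9 peaks overlapped a SMAD4 peak, against 73.2% of the list, and the exceptions were the Id3 peak at 3130 bp and the Id4 peak. In the other direction 13 of 21 SMAD4 peaks overlapped a pSMAD1/5/9 peak, against 42.7%. The summits of both factors were a median of 94 bp apart against 130 bp over all pSMAD1/5/9 peaks, and within 150 bp at 9 of the 14, against 53.9%. They coincided at the Id3 peak 1340 bp upstream and differed by 1 bp at the TSS of Id3. At that TSS the replicate summits of pSMAD1/5/9 lay at −400 and 266 bp, so the 1 bp holds for the consensus summit alone. SMAD4 was listed in control cells at 11 of the 14 places bound by pSMAD1/5/9 after BMP6, against 57.2% of the list. At Id1 this held for 4 of 5 places, where control cells had SMAD4 peaks and no pSMAD1/5/9 peak, and the exception was the peak 2965 bp downstream. At that place SMAD4 ranked 175 of 12860 in BMP6-stimulated cells, with replicate signals of 38409 and 22019, and neither factor was listed in control cells.

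H3K27ac peaks were listed at all 4 genes in both conditions, as at 74.8% of all genes in BMP6-stimulated and 73.4% in control cells. There were 12 peaks in BMP6-stimulated and 13 in control cells. At Id1 a single peak of 20440 bp, rank 132 of 78050, covered the place of 3 control peaks of 1400 bp, 7000 bp and 10100 bp, the strongest of them at rank 807 of 67790. At Id3 a peak of 15820 bp ranked 187, with replicate signals of 6540 and 11632. Its control counterpart of 15800 bp ranked 3279, with 5187 and 4752. At Id2 the strongest peaks ranked 424 and 579, and at Id4 15219 and 26954. In both conditions the peak at the gene covered the TSS. Of the BMP6 peaks 11 of 12 overlapped a control peak (72.0% of the list), and of the control peaks 13 of 13 overlapped a BMP6 peak (86.8%). With each replicate column centred on its own median, both BMP6 values exceeded both control values at 4 of 11 matched peaks, against 19.3% of all matched H3K27ac peaks. At Id2 the BMP6 peaks at −1487 and 4725 bp were both matched to the control peak at −1388 bp, so the 11 are not separate comparisons. The replicates of BMP6-stimulated cells differed in the grid on which peaks were called, 140 bp and 70 bp, against 100 bp in control cells, and at the large Id1 peak the replicate signals were 5514 and 14188 against 7202 and 6913 at its strongest control peak, so the groups overlapped. All 14 pSMAD1/5/9 peaks and 20 of 21 SMAD4 peaks of BMP6-stimulated cells lay on an H3K27ac peak, against 98.2% and 95.7% of their lists, and the exception was the Id4 repeat.

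Of the 6 motifs, GGCGCC differed most in share between these windows and their lists. It was found in 7 of 14 pSMAD1/5/9 windows of BMP6-stimulated cells, against 7.73% of the list, and in 7 of 21 SMAD4 windows, against 7.50%. GGAGCC was in 4 of 14 and 8 of 21 windows, against 25.1% and 23.7%. CAGAC was in 5 of 14 and 10 of 21, against 48.6% and 53.5%. The E-box was in 4 of 14 and 7 of 21, against 31.1% and 29.1%, AP-1 in 2 of 14 and 1 of 21, against 15.5% and 15.1%, and the palindrome GTCTAGAC in none, against 0.518% and 1.26%. Over whole peaks in place of 200 bp, GGCGCC was in 10 of 14 pSMAD1/5/9 and 11 of 21 SMAD4 peaks, against 1391 of 7339 and 2192 of 12860 in the lists. By that count the direction turned for CAGAC, found in 13 of 14 and 20 of 21 peaks against 80.4% and 78.5%, and for the E-box of pSMAD1/5/9, in 11 of 14 against 55.1%. It also turned for AP-1 of pSMAD1/5/9, in 4 of 14 against 28.4%, and in windows of 100 bp for the E-box of SMAD4, whose share at the Id genes minus that of the list was then −2.6 percentage points. Counts over whole peaks depend on width, and most peaks at the Id genes were wider than the median of their list. Widths were 243 to 1641 bp against a median of 582 bp for pSMAD1/5/9, and 314 to 2343 bp against 497 bp for SMAD4. The part of width in the whole-peak counts was not tested. The windows at the Id genes were richer in G and C, with a median of 62.3% for pSMAD1/5/9 against 56.0% over the list and of 59.0% for SMAD4 against 55.0%, and the part of this in the GGCGCC counts was not tested. The GGCGCC windows came from all 4 genes, at −6516 and −1163 bp in Id1, −1574 and 993 bp in Id2, −3027 and 4398 bp in Id3 and −171 bp in Id4. In the promoters, 250 bp before to 50 bp after the TSS, GGCGCC was found at Id3 and Id4 and not at Id1 and Id2, against 12.4% of all promoters.

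**Figure D5:**
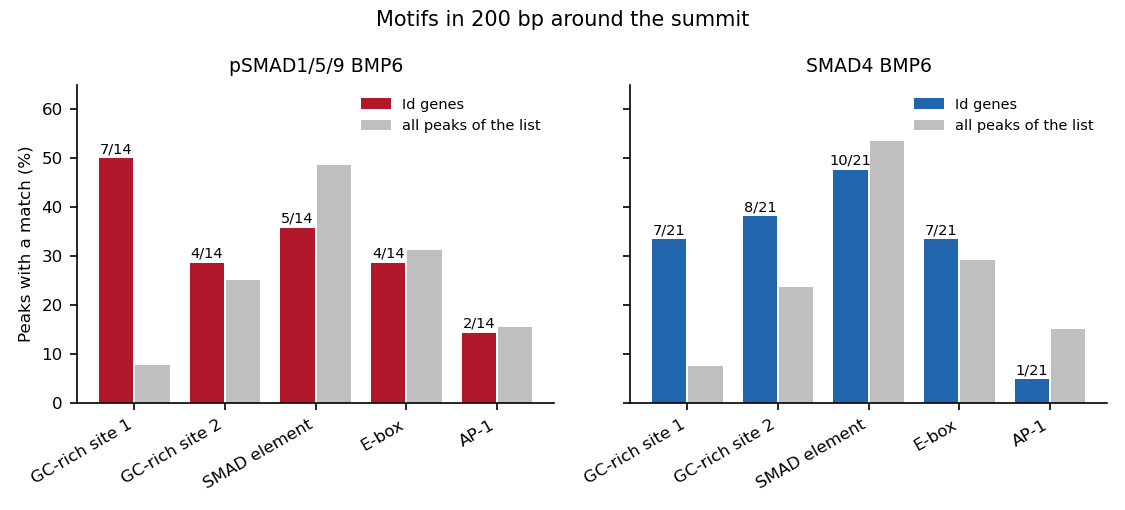
Percentage of windows of 200 bp with a match, for the Id genes (coloured, with the count above the bar) and for all peaks of the list (grey), in the BMP6 lists. The motifs follow the order of the text, so that the leftmost one, site 1, is GGCGCC. It is in 7 of 14 windows against 7.73% for pSMAD1/5/9 and in 33.3% against 7.50% for SMAD4.

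The windows printed above for Id2 and Id3 shared an arrangement in which GGCGCC is followed after 5 bases by GTCTG (GGCGCCNNNNNGTCTG, either strand). It was chosen for counting after the sequences had been seen, so its counts are a description. Only exact matches were counted. The window of the SMAD4 summit 1043 bp upstream of Id1 holds GGCGTC, 5 bases and GTCTG, which differs in 1 base and was left out. The exact arrangement occurs 169 times on chromosomes 1 to 19 and X of GRCm39, that is 0.0642 times per Mb. In the 0.172 Mb of the 4 Id regions it occurs 7 times, once at Id1, 2 times at Id2, 3 times at Id3 and once at Id4. Within 20 kb of a gene it was found at 0.804% of protein-coding genes. Of all GGCGCC sites 0.220% (169 of 76912) stood in this arrangement, and of the 33 in the Id regions 21.2%. After BMP6, 8 of 7339 pSMAD1/5/9 peaks held it, and 4 of these 8 were at the Id genes. Of the other 4, the peak nearest to Skil, a corepressor of SMADs, ranked first in the list. The bound exact sites at the Id genes were these.
Id1, 3226 bp downstream of the TSS: GGCGCCtggctGTCTG
Id2, 1585 bp upstream: GGCGCCagagaGTCTG
Id3, 2957 bp upstream: GGCGCCaggctGTCTG
Id3, 4484 bp downstream: GGCGCCcggatGTCTG
The pSMAD1/5/9 peaks over them ranked 266, 763, 946 and 315, and the SMAD4 peaks 175, 300, 527 and 414. The capitals are the bases that define the arrangement. The other 3 sites, at 4225 bp in Id2, 1296 bp in Id3 and 1808 bp in Id4, lay in no SMAD peak. Of these, the sites of Id2 and Id3 lay in H3K27ac peaks of BMP6-stimulated cells and the site of Id4 did not. pSMAD1/5/9 peaks with GTCTG after GGCGCC numbered 8 at a spacing of 5 bases, 10 at a spacing of 1 and 0 to 9 at each other spacing up to 20. Among SMAD4 peaks 14 had the spacing of 5 and 13 that of 1, the highest counts of that list, and these counts include the 4 Id peaks for which the arrangement was chosen.

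In the ordered levels of the strongest pSMAD1/5/9 peak of BMP6-stimulated cells, Id3 and Id1 stood closest, at ranks of 152 and 204, followed by Id2 at 763 and Id4 at 6843. By the first replicate column alone these ranks were 116, 277, 575 and 6988, and by the second 316, 143, 1366 and 6025, so the order of Id3 and Id1 changed with the replicate and that of Id2 and Id4 did not. For SMAD4 the order was Id1 at 35, Id3 at 291, Id2 at 300 and Id4 at 5150. By the strongest peak in either column alone, Id3 and Id2 ranked 413 and 420 by the first and 176 and 209 by the second, where the Id3 peak was the one at −3000 bp.

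The genes most like each Id gene were sought by the mean absolute difference in the percentile of the strongest peak over the 6 lists. For Id1 they were Wdr81 and its neighbour Tlcd2, at 0.581 percentile points, and Map7d1 at 0.961. For Id2 they were Ftsj1 at 1.83 and the neighbours Fes and Furin at 2.94, and for Id3 Plekhg2, Zfp36 and Med29, which share 1 set of peaks, at 2.01. For Id4 they were Mrpl38 at 2.74, Smoc1 at 2.99 and Glrb at 3.16. Where no peak was listed the percentile was set to 0. For pSMAD1/5/9 after BMP6 this was the value of Mrpl38, Smoc1 and Glrb, against 6.76 for Id4, so they do not share its pSMAD1/5/9 peak. By the second replicate column alone none of these 12 was kept. The Id genes were not each other's nearest, with differences of 10.3 to 12.7 points among Id1, Id2 and Id3 and of 46.8 to 56.0 points to Id4.

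Genes that act with Id proteins or in the same pathway were counted by the same rule, to be read against 29.1% of all genes with a pSMAD1/5/9 peak after BMP6, 5.97% in control and 23.5% after BMP6 alone. Of the 3 dimer partners Tcf3, Tcf4 and Tcf12, all had a pSMAD1/5/9 peak in BMP6-stimulated cells, 2 of them without one in control cells, and at most 4 peaks were listed at 1 gene (Tcf4). Of the 4 myogenic regulatory factors, 2 had a pSMAD1/5/9 peak, both of them in control cells too, and Myf5 and Myf6 had none. Of 12 BMP target and feedback genes, 9 had a pSMAD1/5/9 peak in BMP6-stimulated cells, 8 of them without one in control cells, with a median of 2 peaks and at most 9 (Atoh8), and Msx1, Msx2 and Nog had none.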

How the data were processed

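CUT&Tag libraries of pSMAD1/5/9, SMAD4 and H3K27ac from BMP6-stimulated and control MuSCs were used as deposited, in 6 peak lists of 2 replicates each. Per the methods of the study, the authors subsampled reads to equal depth within each antibody, aligned them to GRCm39, ran the peak caller JAMM on either replicate and retained what passed an IDR threshold of 0.05. The submitters' processing notes name Bowtie2 2.5.4, SAMtools 1.21 and bedtools 2.31.1. The deposited signal of each replicate is a peak caller score without a fixed range, and the deposited IDR is given as −log10. Depth is thus equal within an antibody by the authors' account, but the lists hold no reads per peak, so no counting error can be given.

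Peaks overlapping by at least 1 bp a canonical GENCODE transcript extended by 20 kb were assigned to each Id gene, and the same rule was run on all 21757 protein-coding genes. Ranks are by the sum of both replicates. Peaks of both conditions were matched by overlap, and log2 ratios were centred on the median of all matched peaks. The consensus summit is not always between the replicate summits. Replicate summits are given only for the strongest SMAD4 peaks of Id1 and Id2 and the strongest pSMAD1/5/9 peak of Id3. They lay off the consensus at other peaks too. For pSMAD1/5/9 they lay at 2512 and 2927 bp for the Id1 peak at 2965 bp, and at 3811 and 3704 bp for the Id3 peak at 4398 bp. Motif windows and distances between summits rest on the consensus summit. Motifs were counted in 200 bp around each summit on GRCm39. The genes named as most like each Id gene were the 3 with the smallest mean absolute difference in percentile over the 6 lists. A gene without a peak in a list was given a percentile of 0 there. Members, gene lists and motifs were chosen with earlier results of these data known. The signal per bp, the comparison with genes of at most 5 kb and the spaced motif were added after seeing the data. Other flanks, overlaps, IDR thresholds, scalings and single replicates were tried as alternatives. The overlap code was tested on simulated data with 600 planted overlaps. Python 3.11.15, pandas 2.3.3, NumPy 2.4.6, SciPy 1.17.1 and matplotlib 3.10.9 were used. The 2 libraries without primary antibody were left out.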

Additional observations from a re-analysis of the deposited data

How the results depend on the processing

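The number of SMAD peaks at the Id genes was higher in BMP6-stimulated than in control cells under every alternative run, by 6 to 17 peaks for pSMAD1/5/9 (12 as reported) and by 3 to 11 for SMAD4 (8 as reported). The whole lists were longer with BMP6 too, at 7339 against 949 peaks for pSMAD1/5/9 and 12860 against 8577 for SMAD4. With lists cut to equal length the difference at the Id genes was 6 peaks for pSMAD1/5/9 and 5 for SMAD4. With only as many of the strongest pSMAD1/5/9 peaks as the control list holds, 8 peaks were left of 14. At an IDR of 0.01 the control peaks numbered 0 for pSMAD1/5/9 and 8 for SMAD4, the share of pSMAD1/5/9 peaks listed in both conditions went from 14.3% to 0.0% and the share on SMAD4 from 85.7% to 100.0%. With no pSMAD1/5/9 control peak left at the Id genes, the 0.0% followed from that count. With flanks of 50 kb the control peaks numbered 4 for pSMAD1/5/9 and 20 for SMAD4, and H3K27ac peaks 36 with BMP6 and 37 in control, against 7 and 7 with flanks of 10 kb. When 50% of both peaks had to overlap, shared peaks fell from 57.1% to 14.3% of SMAD4 peaks with BMP6, from 100% to 23.1% of those in control, from 91.7% to 58.3% of H3K27ac peaks with BMP6 and from 100% to 53.8% in control, and of pSMAD1/5/9 peaks 1 of 14 with BMP6 and 1 of 2 in control were then shared. Under that rule the median log2 ratio was 0.76 over 1 pSMAD1/5/9 peak, 0.46 over 3 SMAD4 peaks and 0.12 over 7 H3K27ac peaks. Peaks that differ by more than 2 times in width cannot meet that rule, and the 12 matched SMAD4 peaks had a median width ratio of 2.41. The rule thus drops pairs by their width and is no separate check of sharing or of the ratio. Per bp of width the median log2 ratio was −0.01 for pSMAD1/5/9, opposite in sign to the 0.84 of the whole signal, and 0.04 for SMAD4 against 0.99. With the column of the same position left out of both conditions the pSMAD1/5/9 median was 0.61 to 0.97, and the H3K27ac median, 0.20 as reported, was −0.11 without the second column and 0.58 without the first, and 0.06 when not centred. The causes were not tested. No paired analysis was possible because the replicate columns of the lists carry no replicate number, and leaving out columns by position does not take them as pairs.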
